A study of Mus musculus with 58 samples.

Results

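The genes described here are 7 complement components and regulators (C1ra, Serping1, C4b, C2, C3, Cfb and C7), taken by symbol as 1 row each from the 11603 rows of a table of ribosome-bound mRNA of mouse adipocytes. All 7 were measured in all 22 mRNA libraries, which belong to a series of 58 samples, and its 36 chromatin samples were not used here. NuTRAP mice carry a GFP-tagged ribosomal protein in cells that express a chosen Cre, and the tagged ribosomes are pulled down with their mRNA from homogenised fat (TRAP). All mice were C57BL/6J and ate chow. Warm beige (n = 3) and warm brown (n = 5) libraries came from mice held at 4 °C for 1 week and then at 30 °C for 4 weeks, and cold beige (n = 4) and cold brown (n = 5) from mice taken after the week at 4 °C. Warm white libraries (n = 5) came from mice that had never left 30 °C. Beige and white adipocytes were taken from inguinal white fat and brown ones from interscapular brown fat. The design text names Ucp1-NuTRAP and Adipoq-NuTRAP mice but the labels do not tie a library to either line, so which promoter drove the tag in a given group is unknown here. Each library is labelled a biological replicate, and whether groups share animals is not stated, so p-values measure the spread between these libraries.

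Complement is a cascade of plasma proteins best known from the liver, and adipocytes also make several of them. The C1 complex (C1q with the proteases C1r and C1s) cuts C4 and C2 to form the C3 convertase of the classical pathway, and the alternative pathway builds its own convertase from C3 and factor B, which is cut by factor D (adipsin, a classical adipocyte product). Cleaved C3 tags surfaces and leads on to the terminal components, C7 among them, and the C1 inhibitor, encoded by Serping1, blocks the C1 proteases.

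Values are log2 CPM as deposited (CPM is a read count divided by a library's total and rescaled), differences are log2 fold changes, and a gene is said to rise or fall where limma's adjusted p was under 0.05. How deeply the libraries were sequenced is not known, and the linear values of a library added up to 859198 to 1104362 CPM. All 12 adipocyte markers looked for were measured, and their summed level was 18126 to 22595 CPM in warm beige, 15779 to 17189 CPM in cold beige, 12472 to 13583 CPM in warm brown, 14149 to 14842 CPM in cold brown and 24342 to 28385 CPM in warm white libraries. They include Cfd, the gene of factor D, which is itself a complement gene. Cfd alone stood at 4513 to 6794 CPM in warm beige and 1121 to 1380 CPM in cold beige libraries. Warm brown libraries held 1342 to 1563 CPM of it, cold brown 145 to 315 CPM and warm white 6383 to 8719 CPM. The 7 markers of thermogenic adipocytes summed to 175 to 334 CPM in warm beige, 5905 to 7160 CPM in cold beige, 2203 to 2869 CPM in warm brown, 8432 to 10863 CPM in cold brown and 27.7 to 51.9 CPM in warm white libraries. In tissue pull-downs such as these, fewer cells of a type and less RNA per cell cannot be told apart.

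The rows carry the identifiers uc009dra.2 (C1ra), uc008kje.2 (Serping1), uc008cdk.2 (C4b), uc008cdz.2 (C2), uc008deg.2 (C3), uc008cdy.2 (Cfb) and uc011zqy.2 (C7). In GRCm38.p6, C4b (chromosome 17, 34728139 to 34743902), Cfb (34856374 to 34862514) and C2 (34862602 to 34882100) lie in the major histocompatibility region, with 87 bases between Cfb and C2, and C3 lies far from them on the same chromosome (57203967 to 57228136). C1ra is on chromosome 6 (124512621 to 124523440), C7 on chromosome 15 (4987750 to 5063773) and Serping1 on chromosome 2 (84765360 to 84775444). C4b has a near-identical neighbour in C4a and C1ra has one in C1rb (not analysed here), so reads of C4b and C1ra may have been shared with those genes. The use of strand in counting is not stated, and how reads near the boundary of Cfb and C2 were assigned is not known.

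Promoters are shown for the 3 members matched by symbol in the promoter table used (not for C2, C4b, Cfb and Serping1), which differ in their patterns below, C1ra (rising in both cell types), C3 (falling in brown cells) and C7 (with its highest mean in warm beige cells). The sequences are RefSeq's for GRCm38.p6 and run from 250 bases before to 50 bases after each start, 5′ to 3′ on the gene's strand. Capitals mark matches, on either strand, to an interferon-stimulated response element core (GAAANNGAA, in 8.56% of 32851 mouse promoters of this length), a gamma-interferon activated site (TTCNNNGAA, in 8.30%) or a C/EBP motif (TTNNGNAA, in 40.7%). The windows are chr6:124512371-124512670 (plus strand) for C1ra, chr17:57228087-57228386 (minus strand) for C3 and chr15:5063724-5064023 (minus strand) for C7.
C1ra: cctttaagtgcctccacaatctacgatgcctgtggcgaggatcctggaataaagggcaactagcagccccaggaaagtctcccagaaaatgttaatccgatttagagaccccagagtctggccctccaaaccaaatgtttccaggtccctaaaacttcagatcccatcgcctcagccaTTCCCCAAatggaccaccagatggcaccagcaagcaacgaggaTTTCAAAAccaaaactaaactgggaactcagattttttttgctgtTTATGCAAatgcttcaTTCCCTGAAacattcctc
C3: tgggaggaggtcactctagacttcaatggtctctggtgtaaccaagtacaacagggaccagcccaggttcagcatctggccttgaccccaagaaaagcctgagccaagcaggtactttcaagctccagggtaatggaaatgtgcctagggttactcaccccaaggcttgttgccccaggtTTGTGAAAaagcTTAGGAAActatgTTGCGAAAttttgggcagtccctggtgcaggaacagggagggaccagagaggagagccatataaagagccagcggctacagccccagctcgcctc
C7: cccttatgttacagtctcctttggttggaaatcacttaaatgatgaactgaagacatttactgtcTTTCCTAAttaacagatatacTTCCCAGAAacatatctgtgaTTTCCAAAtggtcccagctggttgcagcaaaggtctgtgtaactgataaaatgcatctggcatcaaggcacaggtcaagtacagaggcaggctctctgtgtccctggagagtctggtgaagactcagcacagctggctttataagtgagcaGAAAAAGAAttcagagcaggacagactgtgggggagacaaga
The C1ra window held a gamma-interferon activated site match 33 to 41 bases after the start and 3 C/EBP matches. The C3 window held C/EBP matches from 70, 58 and 45 bases before the start, with the one nearest the start reading as a match on both strands, and none of the interferon motifs. The C7 window held the response element core 9 to 17 bases after the start, a gamma-interferon activated site match from 164 bases before it and 2 C/EBP matches. No window matched the NF-kB motif, which 8.46% of promoters hold. These are matches of letters only.

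**Figure D1:**
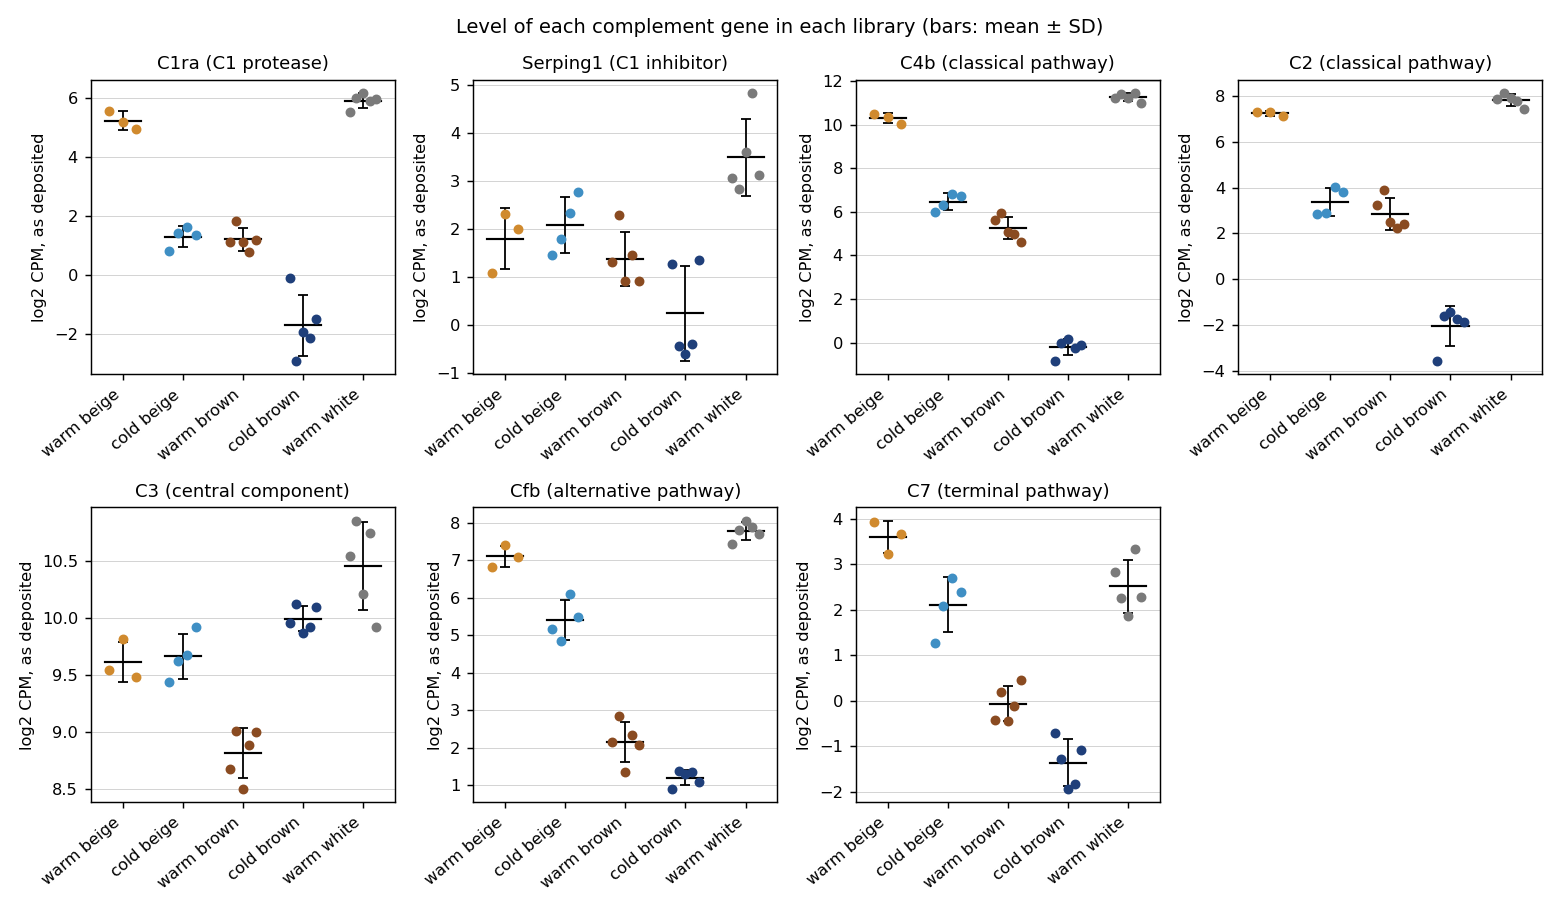
Log2 CPM of each of the 7 complement genes (vertical axes, 1 panel a gene with its own range) in each library of the 5 groups, with bars for the mean and SD (n = 3 warm beige, 4 cold beige, 5 in each other group). C4b, C2 and C1ra in warm beige libraries lie near the warm white ones and far above the cold beige ones, while C3 spans a narrow range and is lowest in warm brown libraries.

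In warmed beige cells the classical pathway genes C1ra, C4b and C2 were 14.2- to 15.2-fold higher and Cfb and C7 were 3.27- and 2.80-fold higher, while C3 itself and the C1 inhibitor did not pass the test. Of the 7 genes, 5 rose and 0 fell between warm and cold beige libraries, where 72.9% of all 11603 rows were called (36% higher and 36.9% lower), so the number called was close to that share and all calls ran in 1 direction. By at least 4-fold, 3 of the 7 rose, against 3.9% of all rows. The 7 were chosen with earlier results of these data known, so their shares here and below are descriptive only. The median change of the 7 was 1.71, against 0.03 over all rows.

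C1ra, the mouse C1r protease that starts the classical cascade by activating C1s, stood at 5.55, 5.18 and 4.92 log2 CPM in warm beige libraries, against 0.80, 1.40, 1.60 and 1.35 log2 CPM in cold beige libraries. The groups lay far apart, and the rise was 3.93 ± 0.41 (SE; adjusted p = 1.34e-08), or 15.2-fold. Serping1, the C1 inhibitor, stood at 1.08, 2.31 and 2.01 log2 CPM in warm beige libraries and at 1.45, 1.80, 2.33 and 2.77 log2 CPM in cold beige libraries. These ranges overlapped, and the difference of -0.29 ± 0.52 did not pass the test (adjusted p = 0.629). It became 0.0725 without the lowest of these libraries, warm beige 1.

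C4b, the component cut by C1s, was at 10.51, 10.35 and 10.05 log2 CPM in warm beige libraries, against 6.00, 6.33, 6.82 and 6.74 log2 CPM in cold beige libraries. Every warm library exceeded every cold one by more than 3 log2 units, the rise was 3.83 ± 0.26 (adjusted p = 8.23e-12), and on the linear scale the geometric means were 1264 CPM in warm and 88.8 CPM in cold libraries. C2, whose fragment joins that of C4 in the classical convertase, was at 7.32, 7.29 and 7.13 log2 CPM in warm beige libraries, against 2.83, 2.89, 4.03 and 3.79 log2 CPM in cold beige libraries. The warm libraries differed by less among themselves (SD 0.10) than the cold ones did (SD 0.61), and the rise was 3.86 ± 0.42 (adjusted p = 2.43e-08). By the size of the increase C1ra, C2 and C4b ranked 36, 41 and 43 among the 11603 rows.

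C3, the component on which all routes converge, was at 9.54, 9.81 and 9.48 log2 CPM in warm beige libraries and at 9.44, 9.62, 9.67 and 9.92 log2 CPM in cold beige libraries. The ranges overlapped and the difference was -0.05 ± 0.17 (adjusted p = 0.793). Its sign turned with the scaling, to 0.32 after quantile normalization, to 0.10 under a common total for all libraries and to 0.17 with totals computed without the 20 most abundant rows, and none of these passed the test. Cfb, factor B, which supplies the protease of the alternative convertase, was at 6.83, 7.41 and 7.09 log2 CPM in warm beige libraries, against 5.16, 4.86, 6.10 and 5.48 log2 CPM in cold beige libraries. The groups did not overlap, and Cfb rose by 1.71 ± 0.27 (adjusted p = 5.82e-06), or 3.27-fold. C7, which joins the membrane attack complex after C5b and C6, was at 3.92, 3.22 and 3.66 log2 CPM in warm beige libraries, against 1.28, 2.08, 2.70 and 2.39 log2 CPM in cold beige libraries. C7 rose by 1.49 ± 0.38 (adjusted p = 0.00145) with no overlap, by 1.83 within batch 1 and by 1.18 within batch 2, where it did not pass the test (adjusted p = 0.0624). Batches 1 and 2 are 2 sets of libraries (10 and 12) told apart by the values of rows at the table's floor.

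**Figure D2:**
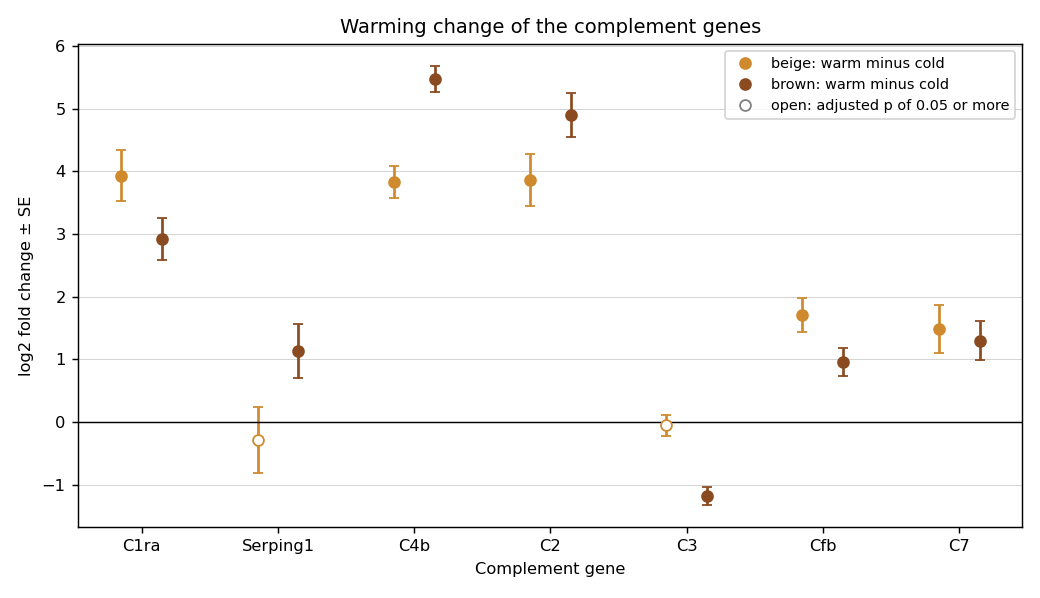
Log2 fold change of the 7 complement genes (vertical axis, genes along the horizontal axis) on warming in beige and in brown cells, with limma's SE as bars and open points where the adjusted p was 0.05 or more. C4b, C2 and C1ra rose by 2.92 or more in both cell types, while Serping1 lies at -0.29 in beige and 1.14 in brown cells, and C3 at -0.05 and -1.18.

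In warmed brown cells 6 of the genes rose and C3 fell. Between warm and cold brown libraries 71.3% of all rows were called (41.2% higher and 30.1% lower), and by at least 4-fold 3 of the 7 rose, against 5.35% of rows. The median change of the 7 was 1.30, against 0.13 over all rows. Geometric means of C4b and C2 in cold brown libraries were 0.866 and 0.244 CPM, and the size of their folds depended on what was added to low values.

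C1ra was at 1.12, 1.83, 1.10, 0.77 and 1.17 log2 CPM in warm brown libraries, against -0.11, -2.93, -1.95, -2.15 and -1.49 log2 CPM in cold brown libraries. The groups did not overlap, although cold brown 1 came within 1 log2 unit of the lowest warm library, and the rise was 2.92 ± 0.34 (adjusted p = 7.79e-08), or 1.29 with 1 CPM added to every value. Serping1 was at 1.31, 2.29, 0.91, 1.46 and 0.92 log2 CPM in warm brown libraries, against 1.28, -0.44, -0.61, -0.39 and 1.36 log2 CPM in cold brown libraries. Cold brown 1 and 5 lay within the warm range and the other cold brown libraries below it, and the rise of 1.14 ± 0.43 passed the test by a narrow margin (adjusted p = 0.0227). With 1 CPM added it did not pass (0.67; adjusted p = 0.0624), nor without any one of cold brown 2, 3 and 4 and warm brown 2 (adjusted p of 0.0623 to 0.0739). It was 1.38 within batch 1 and 0.98 within batch 2, and neither passed (adjusted p of 0.096 and 0.11). The same pair, cold brown 1 and 5, had summed endothelial markers of 241 and 233 CPM, against 69.2 to 79.0 CPM in the other cold brown libraries. Cold beige 1 and 4, which carry the same library numbers, had 394 and 463 CPM, against 210 and 246 CPM in the other cold beige libraries. With cold brown 1 and 5 left out, a choice made after seeing the data, the difference in Serping1 was 1.86 ± 0.41, and it had to grow since these were its highest cold libraries. The part of endothelial RNA in this gene's values was not tested.

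C4b was at 5.63, 5.96, 5.07, 5.01 and 4.64 log2 CPM in warm brown libraries, against -0.85, -0.03, 0.18, -0.23 and -0.11 log2 CPM in cold brown libraries. The rise of 5.47 ± 0.21 (adjusted p = 1.48e-15), or 44.3-fold, was the rank 23 increase among 11603 rows, and it was 4.39 with 1 CPM added. C2 was at 3.25, 3.88, 2.51, 2.24 and 2.42 log2 CPM in warm brown libraries, against -3.57, -1.60, -1.43, -1.73 and -1.86 log2 CPM in cold brown libraries. Every warm library lay above every cold one, cold brown 1 was the lowest by a wide gap, and the rise was 4.90 ± 0.35 (adjusted p = 2.66e-11), or 2.72 with 1 CPM added. Within batch 1 the rise of C2 was 6.15 and within batch 2 it was 4.06.

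C3 was at 8.67, 9.01, 8.50, 8.88 and 9.0 log2 CPM in warm brown libraries, against 9.95, 10.12, 9.87, 9.92 and 10.09 log2 CPM in cold brown libraries. It was the only one of the 7 to be lower in every warm library, and it fell by 1.18 ± 0.14 log2 units (adjusted p = 1.54e-07), or 2.26-fold. Cfb was at 2.15, 2.84, 1.34, 2.33 and 2.08 log2 CPM in warm brown libraries, against 0.90, 1.36, 1.29, 1.34 and 1.08 log2 CPM in cold brown libraries. Warm brown 3 lay within the cold range and the other warm libraries above it, and the rise was 0.95 ± 0.22 (adjusted p = 0.000582), though it did not pass after quantile normalization (0.33; adjusted p = 0.181) or within batch 2 (0.68; adjusted p = 0.0635). C7 was at -0.41, 0.20, -0.44, -0.12 and 0.45 log2 CPM in warm brown libraries, against -0.70, -1.28, -1.93, -1.83 and -1.08 log2 CPM in cold brown libraries. Those ranges did not overlap and the rise was 1.30 ± 0.32 (adjusted p = 0.000907), but with 5 CPM added it was 0.15 and after quantile normalization 0.25, and neither passed (adjusted p of 0.313 and 0.493). Within batch 1 C7 was at 0.89 and did not pass (adjusted p = 0.174).

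Whether warming changed the genes unequally in the 2 cell types was tested as the difference of the changes, beige minus brown, in which 47.2% of all rows were called (14.8% higher and 32.4% lower). Of the 7 genes, C3 was called higher and C4b lower. C3 differed by 1.13 ± 0.22 (adjusted p = 0.000251), with a change of -0.05 in beige and of -1.18 in brown cells, and this held its sign under every alternative tried, losing its call within batch 1 (1.00; adjusted p = 0.166). C4b differed by -1.64 ± 0.33 (adjusted p = 0.000311), with rises of 3.83 in beige and 5.47 in brown cells, but its sign changed with the amount added to low values. The difference was -0.58 with 1 CPM added (adjusted p = 0.102), -0.40 after quantile normalization (adjusted p = 0.368) and 0.87 with 5 CPM added (adjusted p = 0.00847). C2 behaved in the same manner, with -1.04 ± 0.54 on the deposited values (adjusted p = 0.122), 1.02 with 1 CPM added (adjusted p = 0.0221) and 2.07 with 5 CPM added (adjusted p = 9.1e-07). C1ra (1.01 ± 0.53; adjusted p = 0.125), Cfb (0.76 ± 0.35; adjusted p = 0.0784), Serping1 (-1.43 ± 0.68; adjusted p = 0.0889) and C7 (0.19 ± 0.50; adjusted p = 0.783) did not pass on the deposited values. C1ra passed with 1 CPM added (2.18; adjusted p = 3.54e-07) or without cold brown 2 (1.31; adjusted p = 0.0264). Cfb passed with 1 CPM added (0.95; adjusted p = 0.0128), and C7 with 5 CPM added (0.71; adjusted p = 0.00425). Serping1 passed without cold brown 1 (-1.69; adjusted p = 0.0421) or without cold brown 5 (-1.71; adjusted p = 0.0383).

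Warm white libraries set the level of inguinal adipocytes that were never in the cold, and all comparisons with white share these 5 libraries. Of the 7 genes, 1 was higher and 4 were lower in warm beige than in warm white libraries, where 39.4% of all rows were called (17% higher and 22.4% lower). C4b was at 11.26, 11.43, 11.23, 11.46 and 10.99 log2 CPM in warm white libraries, all above the warm beige ones given above, and the difference was -0.97 ± 0.24 (adjusted p = 0.00313). C3 was at 10.54, 10.85, 10.21, 10.74 and 9.92 log2 CPM in warm white libraries, again without overlap, and the difference was -0.84 ± 0.16 (adjusted p = 0.000317). Neither passed within batch 1, which holds 1 warm beige library (C4b at -1.18, adjusted p = 0.0555, and C3 at -0.96, adjusted p = 0.0858).

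Serping1 was at 3.06, 2.83, 3.61, 4.83 and 3.12 log2 CPM in warm white libraries, above all warm beige ones, at a difference of -1.69 ± 0.50 (adjusted p = 0.00993), which did not pass without warm beige 1 (-1.33; adjusted p = 0.0672) or within batch 1 (-0.99; adjusted p = 0.371). Cfb was at 7.43, 7.82, 8.06, 7.89 and 7.72 log2 CPM in warm white libraries, all above the warm beige ones. Its difference of -0.67 ± 0.26 (adjusted p = 0.0404) lost its call within each batch (-0.57 and -0.86; adjusted p of 0.226 and 0.0977), under a common total (-0.62; adjusted p = 0.0663), and without any one of warm beige 1 and 3 and warm white 2 to 5 (adjusted p of 0.0529 to 0.161). C7 was at 2.83, 2.26, 1.86, 3.34 and 2.28 log2 CPM in warm white libraries, and it was the only gene of the 7 at a higher mean in warm beige cells (1.09 ± 0.37; adjusted p = 0.0218). Warm white 4 reached into the warm beige range, and the call was lost without warm beige 1, warm beige 3 or warm white 3 (0.93, 1.06 and 0.92; adjusted p of 0.0903, 0.0596 and 0.0566).

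C1ra was at 5.50, 6.00, 6.15, 5.88 and 5.96 log2 CPM in warm white libraries, and warm white 1 lay within the warm beige range. The difference of -0.68 ± 0.39 did not pass (adjusted p = 0.175), but passed with 1 CPM added (-0.67; adjusted p = 0.0076) and when the 2 groups were fitted alone (adjusted p = 0.0118). C2 was at 7.88, 8.13, 7.92, 7.80 and 7.43 log2 CPM in warm white libraries, all above the warm beige ones. The difference of -0.59 ± 0.40 did not pass (adjusted p = 0.257), but passed when the 2 groups were fitted alone (adjusted p = 0.00938). On the log2 scale, the warm beige mean stood at 86.8% of the way from the cold beige mean (0%) to the warm white mean for C2, at 85.2% for C1ra, at 79.8% for C4b and at 71.7% for Cfb. Single warm beige libraries spanned 84.2% to 88.5% for C2, 78.8% to 92.5% for C1ra, 74.5% to 84.1% for C4b and 60.0% to 84.3% for Cfb. C3, Serping1 and C7 did not share this position, with warm beige means at -6.65%, -20.5% and 370%. Their warm white means lay 0.79, 1.40 and 0.40 log2 units above the cold beige means.

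All 7 genes were lower in warm brown than in warm white libraries, where 79% of all rows were called (40.9% higher and 38.1% lower), and 6 of them by at least 4-fold, against 7.32% of rows. C4b differed by -6.01 ± 0.21 (adjusted p = 4.48e-17), Cfb by -5.64 ± 0.22 and C2 by -4.97 ± 0.35, while C3 differed by -1.64 ± 0.14. In cold beige libraries 6 of the 7 were lower than in warm white ones, where 75.2% of rows were called (38% higher and 37.2% lower), and 4 by at least 4-fold against 4.65% of rows, with C4b at -4.80 ± 0.22, C1ra at -4.61 ± 0.36 and C2 at -4.45 ± 0.37. C7 alone did not pass there (-0.40 ± 0.34; adjusted p = 0.282). Beige and white libraries differ in cell type and in exposure to cold, and brown and white libraries differ in depot as well. These cannot be told apart.

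At both temperatures most of the genes were higher in beige than in brown cells. In warm beige against warm brown libraries 6 of the 7 were higher and 0 lower, where 75.5% of rows were called (35.3% higher and 40.1% lower), and 5 were higher by at least 4-fold, against 8.48% of rows. C4b (5.04 ± 0.24), Cfb (4.96 ± 0.26), C2 (4.39 ± 0.40), C1ra (4.02 ± 0.39) and C7 (3.66 ± 0.37) made up those 5, and C3 was higher by 0.80 ± 0.16 (adjusted p = 0.00015). Serping1, at 0.42 ± 0.50, did not pass (adjusted p = 0.45) and turned to -0.27 after quantile normalization. In cold beige against cold brown libraries 6 of the 7 were also higher, where 61.9% of rows were called (34.7% higher and 27.2% lower), 5 of them by at least 4-fold against 8.02% of rows, with C4b at 6.68 ± 0.22, or 103-fold, C2 at 5.42 ± 0.37, Cfb at 4.21 ± 0.23 and Serping1 at 1.85 ± 0.46. With 1 and 5 CPM added, C4b was at 5.58 and 4.00 and C2 at 3.18 and 1.57. Serping1 did not pass after quantile normalization (0.68, adjusted p = 0.153), nor within batch 1, where it was at 1.69. C3 did not pass (-0.33 ± 0.15; adjusted p = 0.0643), and it passed when only those groups were fitted (adjusted p = 0.00915). These pairs differ in depot as well as in cell type, which cannot be told apart.

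Set in order of the group means, C4b and Cfb each formed a ladder of warm white, warm beige, cold beige, warm brown and cold brown in which every step passed the test. For C1ra and C2 the order was the same, but the steps from warm white to warm beige and from cold beige to warm brown did not pass. For C1ra, warm brown libraries averaged 1.2 ± 0.39 and cold beige libraries 1.29 ± 0.34 log2 CPM (SD). For C7 warm beige stood first, followed by warm white and cold beige, a step that did not pass (adjusted p = 0.282), then warm brown and cold brown. Serping1 was highest in warm white and lowest in cold brown, and the steps from cold beige to warm beige and from there to warm brown did not pass. C3 had another order, with warm white above cold brown (adjusted p = 0.00472), then cold beige and warm beige, and warm brown last. From cold brown to cold beige and from there to warm beige neither step passed, while warm beige against cold brown did (-0.38; adjusted p = 0.0364). C3 had 1.64 log2 units between its highest and its lowest mean.

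Across the 22 libraries, C4b and C2 moved most closely together (Pearson r = 0.995), C4b and C1ra at r = 0.962, and C3 stood apart, with r of 0.219 to 0.485 with the other members. These correlations describe libraries that fall into 5 groups and share scaling and batch adjustment. The rows most like C1ra over the 22 libraries were C1s1, its partner protease (r = 0.990), Palm (0.989) and Slco2b1 (0.988). For C4b they were C2, Gsn (0.995) and Maf (0.992), and for C2 they were C4b, Gsn (0.985) and Maf (0.982). C3 was most like the lipid droplet genes Cidec (0.918) and Plin1 (0.908), with the phosphatase gene Ptprf (0.910) between them. Cfb was most like Chst1 (0.988), the adipokine gene Retn (0.986) and the fatty acid receptor gene Ffar2 (0.986), C7 was most like Plekho2, Aebp1 and Ecm1 (0.970 to 0.971), and Serping1 was most like Cldn15, B4galt6 and E030003E18Rik (0.900 to 0.920).

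The genes in and around the complement cluster on chromosome 17 changed by unlike amounts and in both directions. Within 100 kb of the span from C4b to C2, 11 other genes, taken by position, were measured, and their changes ran from -2.14 to 2.53 on warming of beige and from -1.55 to 2.50 on warming of brown cells. The one nearest the complement genes in size was Zbtb12, which rose by 2.53 in beige and 2.50 in brown cells. In beige cells Atf6b, Tnxb, Dxo, Skiv2l, Nelfe, Zbtb12, Ehmt2 and Neu1 rose and Fkbpl and Hspa1l fell. Of all rows 36% rose and 36.9% fell there. In brown cells Atf6b, Tnxb, Stk19, Nelfe, Zbtb12 and Ehmt2 rose and Fkbpl, Dxo, Skiv2l and Hspa1l fell, against 41.2% and 30.1% of all rows. The genes between C4a and Cfb are Stk19, Dxo, Skiv2l and Nelfe, and their changes were 0.21 (adjusted p = 0.31), 0.26, 0.65 and 0.72 in beige cells and 0.64, -0.72, -0.15 and 0.74 in brown cells. Cfb, which adjoins C2, rose by 1.71 in beige and 0.95 in brown cells, against 3.86 and 4.90 for C2. On chromosome 6, C1ra and C1s1 rose while C1rl, the next gene before C1ra, fell by 1.65 in beige and by 1.66 in brown cells.

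**Figure D3:**
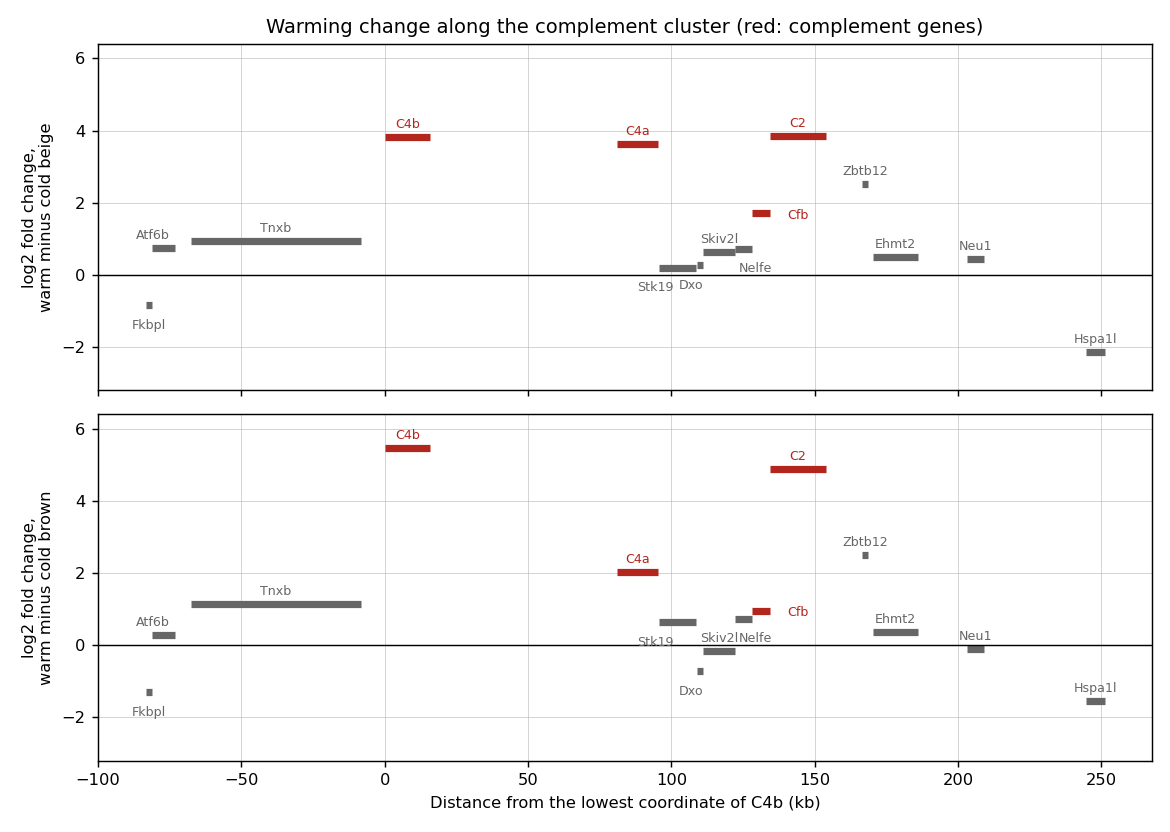
Log2 fold change on warming (vertical axes, beige above and brown below) of the measured genes of the chromosome 17 window by their distance in kb from the lowest coordinate of C4b, with each bar as long as its gene. C4b, C4a and C2 (red) rose by 3.64 to 3.86 in beige cells, and the 11 other genes (grey) lie between -2.14 and 2.53. Cfb, also red, rose by 1.71 in beige cells, within the range of the grey genes. The values of C4a may hold reads of C4b.

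Of a list of other complement genes, 20 are described. On warming, 9 of them rose and 5 fell in beige cells and 10 rose and 2 fell in brown cells, and in the difference 1 was higher and 4 were lower. These are no larger shares than the 72.9%, 71.3% and 47.2% of all rows called in those comparisons. The median of the 20 was 0.62 in beige and 0.70 in brown cells. Cfd, the factor D that activates factor B, averaged 12.52 ± 0.33 log2 CPM in warm beige and 10.23 ± 0.13 in cold beige libraries (SD), and it rose by 2.28 ± 0.20 (SE). In brown cells Cfd averaged 10.48 ± 0.08 log2 CPM in warm and 7.74 ± 0.50 in cold libraries, a rise of 2.74 ± 0.17. C1s1, the protease that cuts C4 and C2, rose by 2.50 ± 0.30 in beige and 2.43 ± 0.24 in brown cells (difference 0.07 ± 0.38; adjusted p = 0.899). C4a, annotated as a transcribed pseudogene beside C4b, rose by 3.64 ± 0.62 in beige and 2.03 ± 0.52 in brown cells. It averaged 3.51 and -0.13 log2 CPM in warm and cold beige, and -1.47 and -3.50 in warm and cold brown libraries. These means lie far below those of C4b, and the part of C4b reads in them was not tested.

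Several genes ran the other way. C1rl, a C1r-like protease, averaged 3.80 ± 0.33 log2 CPM in warm beige and 5.45 ± 0.17 in cold beige libraries. Cpn2, a subunit of the carboxypeptidase that inactivates anaphylatoxins, averaged 3.26 ± 0.76 log2 CPM in warm beige and 6.85 ± 0.15 in cold beige libraries and fell by 3.59 ± 0.39 log2 units, while in brown cells it averaged 6.99 ± 0.12 in warm and 7.64 ± 0.17 in cold libraries (-0.65 ± 0.32; adjusted p = 0.0759). The effect on Cpn2 differed between the cell types by -2.94 ± 0.50 (adjusted p = 4.86e-05). Masp2, a protease of the lectin pathway, fell by 0.21 ± 0.09 log2 units in beige and by 0.39 ± 0.08 in brown cells, and C8g, which encodes a terminal component chain, fell by 0.65 ± 0.18 in beige cells with 0.28 ± 0.14 in brown cells (adjusted p = 0.086).

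Regulators that hold complement in check moved unevenly. Clu, clusterin, which binds terminal complexes, rose by 5.61 ± 0.38 in beige and 5.61 ± 0.31 in brown cells, averaging 7.16 ± 0.92 log2 CPM in warm beige, 1.56 ± 0.75 in cold beige, 7.49 ± 0.35 in warm brown and 1.88 ± 0.23 in cold brown libraries (SD). Cd55, which speeds the decay of convertases, rose by 0.64 ± 0.21 in beige and 1.54 ± 0.17 in brown cells, and the difference was called (-0.90; adjusted p = 0.00952). Thbd, thrombomodulin, rose by 2.37 ± 0.48 in beige cells and was at 0.71 ± 0.39 in brown cells (adjusted p = 0.109), and the difference was called (1.65; adjusted p = 0.0321). Cd59a, which blocks the membrane attack complex, did not pass in either (-0.12 and -0.22). The integrin subunits Itgam and Itgb2, which form a receptor for cleaved C3 on leukocytes, rose in brown cells by 2.40 ± 0.66 and 1.48 ± 0.45, with means of -1.11 and -0.41 log2 CPM in warm and -3.51 and -1.90 log2 CPM in cold brown libraries.

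**Figure D4:**
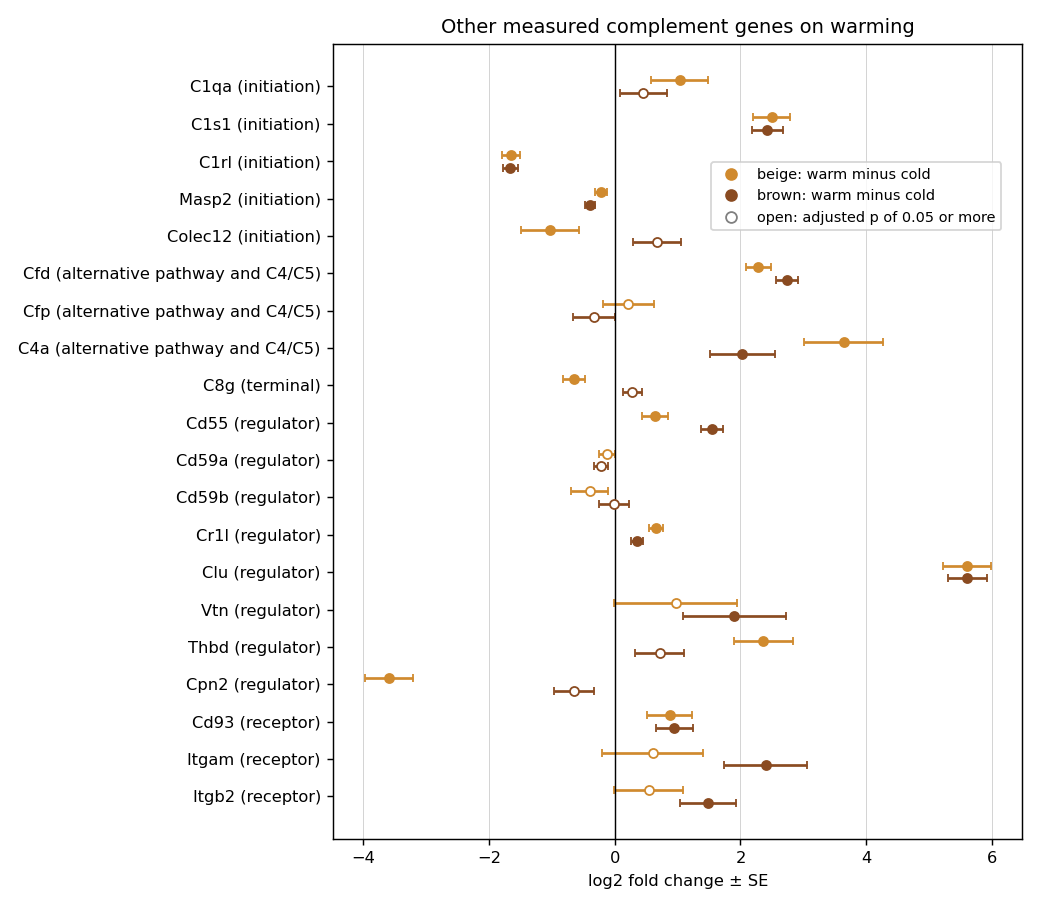
Log2 fold change on warming (horizontal axis, with SE) of 20 other measured complement genes in beige and in brown cells, grouped by step of the cascade, with open points where the adjusted p was 0.05 or more. Clu at 5.61 in both cell types is farthest to the right, and Cpn2 in beige cells, at -3.59, is farthest to the left.

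Of 28 measured genes of the cytokine and transcription pathways known to act on complement genes, 18 rose and 4 fell in warmed beige cells, and 18 rose and 6 fell in brown cells, where 72.9% and 71.3% of all rows were called. Their median change was 0.75 in beige and 0.55 in brown cells. Irf1, an interferon-induced transcription factor, rose by 2.17 ± 0.21 in beige and 2.25 ± 0.17 in brown cells, and Stat2 and Irf9, which bind interferon-stimulated response elements together, rose by 1.34 ± 0.18 and 1.42 ± 0.15 in beige and by 1.85 ± 0.15 and 2.13 ± 0.13 in brown cells. The feedback inhibitors Socs1 and Socs3 rose by 4.03 ± 0.68 and 3.09 ± 0.47 in beige cells and by 3.76 ± 0.57 and 2.75 ± 0.39 in brown cells. These folds start from low values. Socs1 averaged -1.06 log2 CPM in cold beige and -4.14 in cold brown libraries, and Socs3 averaged 0.645 and -1.20. Ifngr1, a chain of the interferon gamma receptor, rose more in beige (1.92 ± 0.15) than in brown cells (0.91 ± 0.12), and that difference was called (1.01; adjusted p = 0.000153). Not every such gene of the list rose. Ifnar2 was at 5.94 to 6.10 log2 CPM in warm and 6.42 to 6.83 in cold beige libraries. In brown cells it was at 6.65 to 7.00 in warm and 7.30 to 7.48 in cold libraries. Ifngr2 ranges overlapped in beige cells (4.31 to 4.56 warm, 4.37 to 4.85 cold) and in brown cells (4.78 to 5.08 and 4.78 to 5.20). Stat3 averaged 7.08 and 6.51 in warm and cold beige, and 6.19 and 6.38 in warm and cold brown libraries. Nr1h3, the oxysterol receptor LXR alpha, fell by 1.45 ± 0.12 log2 units in beige and by 1.90 ± 0.10 in brown cells. Hif1a averaged 6.21 log2 CPM in warm and 7.505 in cold beige libraries, and 6.45 and 7.51 in warm and cold brown libraries. For Il1r1 the means were 4.31 and 4.95 in warm and cold beige, and 2.47 and 4.16 in warm and cold brown libraries.

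Of 5 measured acute-phase genes, 4 rose and 1 fell in beige cells, and 3 rose and 1 fell in brown cells, where 72.9% and 71.3% of all rows were called. Hp, haptoglobin, rose by 2.09 ± 0.17 in beige and 1.92 ± 0.14 in brown cells. Orm1, which encodes orosomucoid, fell by 2.94 ± 0.29 log2 units in beige and by 1.88 ± 0.24 in brown cells.

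Markers of other cells also moved with temperature, where 36% of all rows rose in beige and 41.2% in brown cells. For fibroblasts and preadipocytes, 12 of 19 markers rose and 0 fell in beige cells (median 1.21, at most 2.98), and their summed level was 8750 to 12786 CPM in warm beige and 1887 to 2369 CPM in cold beige libraries. In brown cells 15 of the 19 rose and 0 fell (median 1.33, at most 3.46), with sums of 1041 to 1232 CPM in warm brown and 177 to 332 CPM in cold brown libraries. Pdgfra, a defining fibroblast marker, was at 0.51 ± 0.28 in beige cells (adjusted p = 0.111) and rose by 0.79 ± 0.23 in brown cells, and Gsn, which is in the list and whose pattern was among the nearest to C4b and C2, rose by 2.63 ± 0.19 in beige and 3.46 ± 0.16 in brown cells. Warm white libraries had sums of 12865 to 15540 CPM. Gsn alone held 8364 to 9878 CPM in warm white and 3692 to 6889 CPM in warm beige libraries. Of the 19 markers, 9 were higher and 4 lower in warm beige than in warm white libraries. In that comparison 17% of all rows were higher and 22.4% lower.

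Of 11 macrophage markers 6 rose and 0 fell in each cell type, with a median of 0.75 in beige (at most 3.36) and of 1.30 in brown cells (at most 1.99), and with sums of 197 to 223 CPM in warm beige, 68.5 to 115 CPM in cold beige, 25.9 to 38.4 CPM in warm brown, 10.4 to 16.8 CPM in cold brown and 109 to 167 CPM in warm white libraries. Cd14 had the largest rise of them, by 3.36 ± 0.31 in beige and 1.99 ± 0.26 in brown cells, and Mertk, a phagocytic receptor gene, rose by 1.2 ± 0.25 in beige and 1.66 ± 0.21 in brown cells. Adgre1, a defining macrophage marker, was at 0.63 ± 0.50 in beige (adjusted p = 0.266) and at 0.26 ± 0.42 in brown cells (adjusted p = 0.583). For endothelial cells 11 of 15 markers rose in beige and 5 in brown cells and 0 fell in either, with sums of 666 to 1028 CPM in warm beige and 210 to 463 CPM in cold beige libraries. Endothelial sums were 157 to 272 CPM in warm brown, 69.2 to 241 CPM in cold brown and 66.2 to 104 CPM in warm white libraries. All 15 were at least 4-fold higher in warm beige than in warm white libraries, where 17% of all rows were called higher by any amount. The share of all rows at least 4-fold higher in that comparison was not computed. Of 7 smooth muscle and pericyte markers 4 rose, each at least 4-fold, and 2 fell in beige cells (median 2.19, at most 3.65). By at least 4-fold 3.9% of all rows rose there. Of the same 7 markers 2 rose and 1 fell in brown cells, and 6 were at least 4-fold higher in warm beige than in warm white libraries. Skeletal muscle markers, 7 of them measured, all rose in beige cells by a median of 4.72, with sums of 17.9 to 198 CPM in warm beige and 2.13 to 17.6 CPM in cold beige libraries. No gene of any of these 5 lists was at or below -5 log2 CPM, the cut-off set here for the floor, in every warm beige library, and the part of these cells in the changes of the complement genes was not tested. Markers of T, B and NK cells and of neutrophils were not analysed here.

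**Figure D5:**
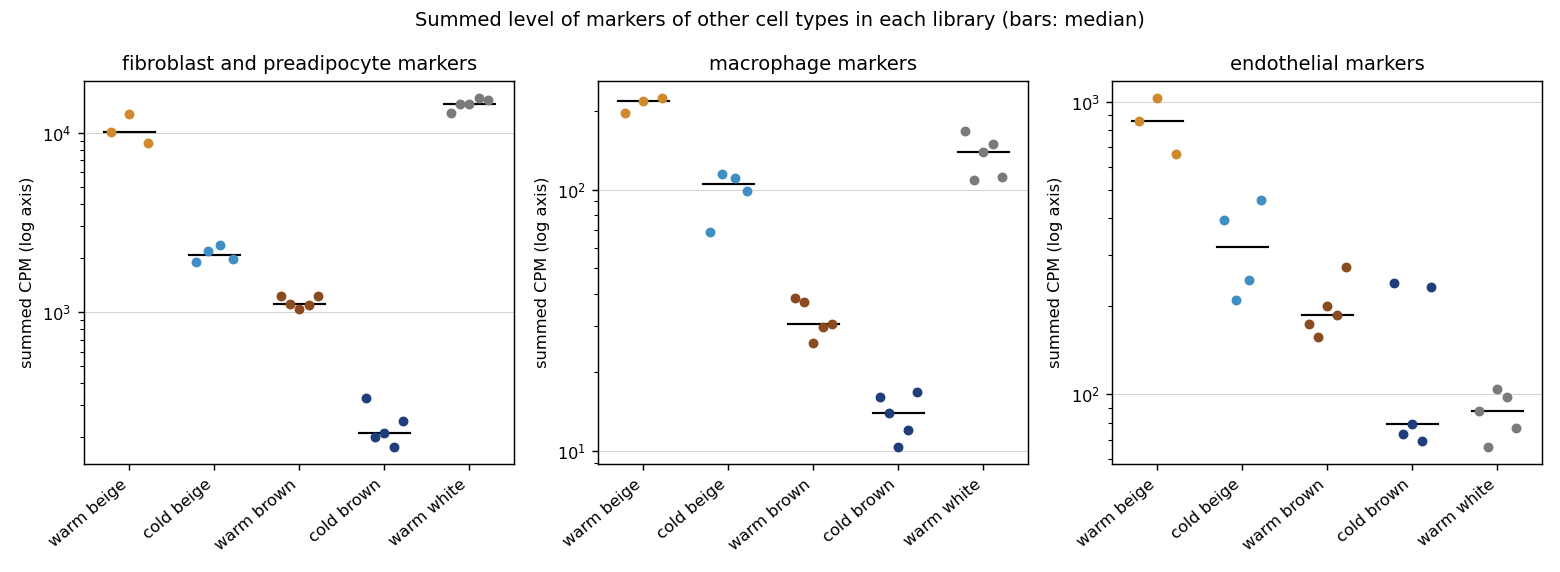
Summed CPM (log axes) of 19 fibroblast and preadipocyte, 11 macrophage and 15 endothelial markers in each library of the 5 groups, with bars for the median. Fibroblast sums, Gsn included, run in the order of the C4b levels, from 12865 to 15540 CPM in warm white down to 177 to 332 CPM in cold brown libraries. Cold brown 1 and 5 stand at 241 and 233 CPM of endothelial markers. Gsn alone holds 8364 to 9878 CPM of the warm white and 3692 to 6889 CPM of the warm beige fibroblast sums. Its pattern is among the nearest to C4b (r = 0.995), so part of this order is built in. The order without Gsn was not tested.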

How the data were processed

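Ribosome-bound mRNA was measured in 22 libraries. The authors deposited a table of log2 CPM (named CPM, with values of -7.21 to 15.78). The submitters' processing notes list the build mm10 and the tools featureCounts, edgeR, HISAT2 and Picard, whose versions and roles are not given in the sources used here. Columns were matched to samples by depot, cell type and library number. The warm white columns carry the word warm where the labels write rewarm. Rows that sit at the floor throughout a depot (at or below -5 log2 CPM, a cut-off set here) took slightly different values in 10 and in 12 libraries, which gave batch 1 and batch 2. Fitted batch coefficients were at most 0.005 log2 units, as in values already adjusted for these batches. The deposited table's name mentions batch, but how it was treated is not given in the sources used here. The labels name no batch.

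A limma-trend fit (limma 3.58.1, R 4.3.3) on the deposited values estimated 5 group means without covariates, with two-sided tests, Benjamini-Hochberg adjustment over all 11603 rows and a threshold of 0.05. The script was tested on simulated data. The 7 genes were named in every comparison, the other genes came from lists of complement, upstream, acute-phase and marker genes, and likeness took the 3 highest Pearson r. A gene of the complement list is not reported here and was left out of its counts. The members and lists were chosen with earlier results of these data known. Motif matches were sought in 3 RefSeq promoters. Alternatives were 1 or 5 CPM added, a filter of 5 CPM in 3 libraries, other scalings, library weights, blocks, batches and leaving out libraries.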

Additional observations from a re-analysis of the deposited data

Results flagged for a closer look

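In a group of 5 cold brown libraries, C2 in cold brown 1 lay at -3.57 log2 CPM, and its gap to the nearest of the others was 0.799 of the group's range, above Dixon's critical value of 0.710. This was 1 of 28 groups tested for an outlying library, and chance gives about 1 in 20. The part of low counts at this level was not tested, since the depth is unknown.

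The warming change differed between beige and brown cells for C4b, at -1.64 ± 0.33 (limma, adjusted p = 0.000311), and for C3, at 1.13 ± 0.22 (adjusted p = 0.000251). The call of C4b was lost with 1 CPM added (-0.58; adjusted p = 0.102) and after quantile normalization (-0.40; adjusted p = 0.368), and its sign turned with 5 CPM added (0.87; adjusted p = 0.00847). For C4b all 3 warm beige libraries exceeded all 4 cold beige ones and all 5 warm brown libraries exceeded all 5 cold brown ones. For C3 the beige ranges overlapped, and all 5 warm brown libraries lay below all 5 cold brown ones.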

How the results depend on the processing

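Each of the 22 libraries was left out in turn in every comparison, also where it belonged to no group compared. Leaving out such a library cannot move the log2 fold change, only its SE and adjusted p. Of the 1232 values for single genes so recomputed, 1206 kept their direction and side of the threshold, 14 lost and 8 gained their call and 4 changed sign. The 1206 thus include values whose direction could not change. Under the other alternatives 828 of 896 were kept, 34 lost and 21 gained their call and 13 changed sign. For the numbers of the 7 genes called, brown warming gave 4 after quantile normalization. The difference of warming gave 4 with 1 CPM added, 6 with 5 CPM added, 4 after quantile normalization and 1 within batch 1. Warm beige against warm white gave 3 with library weights, 0 within batch 1 (limma, with 2 at an unadjusted p under 0.05) and 3 within batch 2. Over all rows, batch 1 alone gave 5255 calls for beige warming, 5050 for brown warming, 1969 for the difference, 1304 for warm beige against warm white and 3710 for cold beige against cold brown, and fitting only the groups compared gave 3016 for warm beige against warm white. Without 1 library, warm beige against warm white gave 2 to 5 of the 7 and 3830 to 4620 rows, and the lowest count of the 7 came without warm beige 1. The other ranges were 5 to 5 of the 7 and 7941 to 8525 rows for beige warming, 6 to 7 and 7953 to 8389 for brown warming, 2 to 3 and 5057 to 5583 for the difference, 7 to 7 and 8893 to 9234 for warm brown against warm white, 6 to 6 and 8439 to 8818 for cold beige against warm white, 6 to 6 and 8332 to 8811 for warm beige against warm brown, and 6 to 7 and 6607 to 7356 for cold beige against cold brown.

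Signs turned as follows. C3 in beige warming became 0.32 after quantile normalization, 0.10 with a common total, 0.17 with totals without the 20 most abundant rows, 0.0076 with library weights and 0.03 within batch 2, and it ran from -0.15 to 0.0333 with 1 library left out, above 0 without cold beige 4 or warm beige 3. Serping1 ran from -0.54 to 0.0725 in beige warming with 1 library left out, above 0 without warm beige 1, and became -0.27 in warm beige against warm brown after quantile normalization. In the difference of warming C7 became -0.37 with library weights, -0.40 within batch 2, -0.13 without cold brown 1 and 5 together (chosen after seeing the data) and -0.09 to 0.38 with 1 library left out, below 0 without cold beige 1, C4b became 0.87 with 5 CPM added, and C2 became 1.02 with 1 CPM added, 2.07 with 5 CPM added and 0.32 after quantile normalization. The cause was not tested. Totals without the 20 most abundant rows moved the median of all rows to 0.25 in beige warming, against 0.03 as deposited, and the share of calls that were higher to 60.8%, against 49.4%. In the difference that share was 49.7% after quantile normalization, 45.4% with median-of-ratios scaling and 31.3% as deposited, and in warm beige against warm white it was 61.0% without the 20 most abundant rows and 43.1% as deposited. In cold beige against cold brown it was 46.0% after quantile normalization and 56.0% as deposited. Same-numbered libraries did not correlate at over 0.1 in every pair of any comparison, so the numbers were not taken as pairs. By library number the correlations were all positive between cold beige and cold brown (0.071 to 0.35) and between warm beige and warm brown libraries (0.065 to 0.205), and in the warm pair each library correlated best with its own number, a hint from the data and not the design. A replicate block by title or library number moved no count of calls by over 1.5 times. The block by title number ended the call of Cfb in warm beige against warm white (-0.66; adjusted p = 0.0619) and gave C3 one in cold beige against cold brown (-0.35; adjusted p = 0.0322). Depth is unknown, so values near or below 0 log2 CPM, such as C4b and C2 in cold brown libraries, carry an unknown counting error.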
